A study of Homo sapiens with 6 samples.

Results

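Tubulin mRNAs were measured in extracellular vesicles (EVs) of CD47- and WT Jurkat T cells. The genes were 10 human tubulin genes given as a list, and a probe set belonged to them when the array annotation gave it exactly 1 gene symbol from that list. This selected 13 of the 19460 probe sets with 1 symbol, out of 33297 on the array, and covered 9 of the 10 genes. TUBB3 had no such probe set. Groups of probe sets with the same values in all 6 arrays, 3 for TUBB and 2 of the 3 for TUBB2A, were counted as 1 measurement each, which left 10 measurements.

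The CD47- EVs came from JinB8, a somatic mutant of the Jurkat T cell leukemia line that lacks CD47, and the WT EVs came from Jurkat cells. Both lines were cultured for 24 to 48 h in serum-free HITES medium, and EVs were precipitated with a kit, which the labels give as Exo-quick or Exo-spin and the study's methods give as Exo-quick for EV mRNA. RNA (300 ng) was labelled for Affymetrix human gene arrays, 3 per group, described as replicates in cell culture. JinB8 is 1 mutant line, so loss of CD47 cannot be told apart from other differences between the lines, and if the preparations were not separate cultures the p-values measure technical spread. Because a set amount of RNA was labelled, neither the number of vesicles nor the amount of mRNA per vesicle can be read from these values. Every value is a level relative to the other RNAs of the same sample.

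Microtubules are hollow polymers of alpha- and beta-tubulin dimers, and gamma-tubulin nucleates them at the centrosome. Vertebrates encode each tubulin in several genes whose proteins, called isotypes, are very similar. Some isotypes are made in nearly every cell, while others are best known from neurons, platelets or other specialised cells. Cells also adjust tubulin mRNA stability to the amount of free dimer, a process known as tubulin autoregulation. In what follows TUBA1B, TUBA1C, TUBB, TUBB4B and the gamma-tubulin gene TUBG1 are called ubiquitous, and TUBA1A, TUBA4A, TUBB2A, TUBB3 and TUBB6 tissue-restricted. This division is by general knowledge of the isotypes, and TUBB6 in particular is broadly expressed outside the nervous system.

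Sequences upstream of 3 genes are shown because these genes covered most of the range of responses: TUBB had the highest log2 difference between the groups, TUBB4B the next with all arrays in the fit, and TUBA1A one near 0. Each is the 250 bases before the first annotated transcription start in RefSeq (GRCh38.p14), written 5′ to 3′ on the strand of the gene. Capitals mark the CCAAT box (CCAAT or ATTGG), the TATA box (TATAA or TTATA, which can overlap each other) and the GC box (GGGCGG or CCGCCC), searched on both strands.
TUBB, chr6:30720102-30720351, plus strand: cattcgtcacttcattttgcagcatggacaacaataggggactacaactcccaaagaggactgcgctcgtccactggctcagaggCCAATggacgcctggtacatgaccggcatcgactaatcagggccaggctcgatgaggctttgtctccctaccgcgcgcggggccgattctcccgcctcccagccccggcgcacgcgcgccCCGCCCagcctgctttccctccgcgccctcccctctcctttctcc
TUBB4B, chr9:137241037-137241286, plus strand: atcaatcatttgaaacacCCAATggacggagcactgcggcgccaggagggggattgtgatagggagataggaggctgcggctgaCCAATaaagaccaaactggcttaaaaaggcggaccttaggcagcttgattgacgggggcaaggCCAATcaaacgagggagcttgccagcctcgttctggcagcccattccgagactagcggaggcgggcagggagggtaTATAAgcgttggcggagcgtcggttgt
TUBA1A, chr12:49189081-49189330, minus strand: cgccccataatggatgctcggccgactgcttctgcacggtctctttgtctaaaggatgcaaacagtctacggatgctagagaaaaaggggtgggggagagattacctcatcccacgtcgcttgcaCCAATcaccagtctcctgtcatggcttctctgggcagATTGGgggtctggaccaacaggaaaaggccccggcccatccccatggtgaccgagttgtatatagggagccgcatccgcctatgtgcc

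The TUBB window held 1 CCAAT box and 1 GC box, the TUBB4B window 3 CCAAT boxes and 1 TATA box, and the TUBA1A window 2 CCAAT boxes. All 10 tubulin genes had at least 1 RefSeq window, 15 in all. A CCAAT box was present in 9 of the 15 windows, a TATA box in 5 and a GC box in 9, against 32.0%, 18.9% and 42.6% of all 35116 windows of the same length. The second TUBB window, not shown, held 0 CCAAT boxes and 5 GC boxes. The first and second TUBA1C windows overlap and each held 1 CCAAT box, so the 15 windows are not all separate. These matches are a description of the letters. Whether they bear on the differences between the EV groups was not tested.

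TUBB encodes the main class I beta-tubulin of most cells. Its values, on the log2 RMA scale used throughout, were 9.24, 9.25 and 9.48 in CD47- EVs, against 8.35, 8.38 and 8.13 in WT EVs. Every CD47- array lay above every WT array, with a gap several times the spread within either group. The mean was 9.32 ± 0.14 in CD47- EVs and 8.29 ± 0.14 in WT EVs (SD, n = 3 each). This was a log2 difference of 1.04 (SE 0.10, 95% interval 0.83 to 1.25), a 2.05-fold higher level in CD47- EVs, with an adjusted p of 0.00026 (limma, Benjamini-Hochberg over all probe sets with 1 symbol). Of those 19460 probe sets, 0.709% passed in the same direction, 138 against 3 that were lower in CD47- EVs. TUBB was the 1 tubulin gene of the 9 measured that passed. Its difference exceeded that of 99.88% of all probe sets. Without the second CD47- array, the third CD47- array or the third WT array, 86, 71 and 64 probe sets passed as higher, TUBB among them each time. As a gauge of signal from genes not normally transcribed in T cells, 381 olfactory receptor probe sets had a median of 5.45 and a 95th percentile of 6.79, and the level of TUBB exceeded 99.7% of them.

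**Figure D1:**
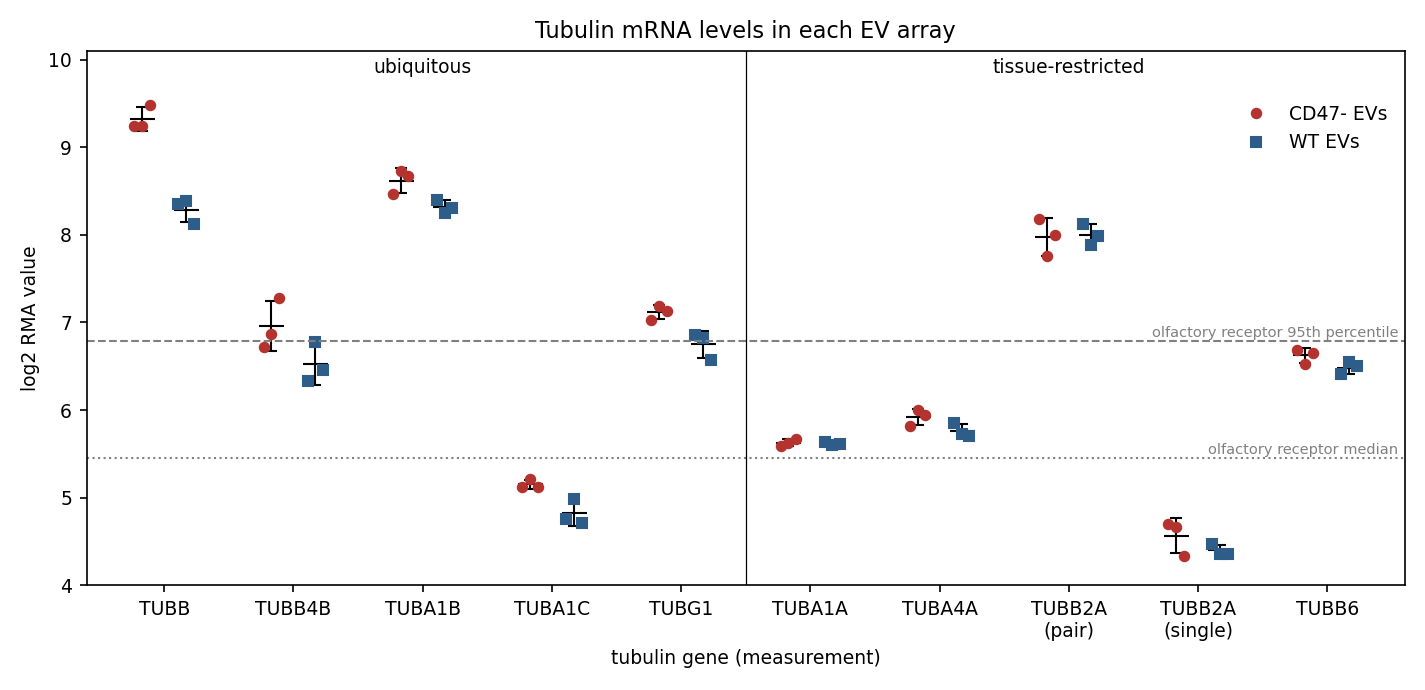
Log2 RMA value of each tubulin measurement in the 3 CD47- EV arrays (circles, left of each pair) and the 3 WT EV arrays (squares, right), with mean and SD as black bars. Horizontal lines mark the median (5.45) and 95th percentile (6.79) of 381 olfactory receptor probe sets, and TUBB shows the widest gap between the groups.

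Among the other ubiquitous genes, none passed the test, although each had an unadjusted interval above 0. TUBB4B, another beta-tubulin with broad expression, had values of 6.72, 6.87 and 7.28 in CD47- EVs and 6.33, 6.78 and 6.46 in WT EVs. The groups overlapped, since the lowest CD47- array fell under the highest WT array. The log2 difference was 0.43 (SE 0.14, 95% interval 0.12 to 0.74, limma adjusted p = 0.32), the least precise of the 10. It rested in part on the third CD47- array, without which it was 0.27, the lowest among the ubiquitous genes in that setting.

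TUBG1, which encodes gamma-tubulin, the subunit that starts new microtubules, had 7.03, 7.18 and 7.14 in CD47- EVs and 6.85, 6.83 and 6.58 in WT EVs. Its groups did not overlap, and the third WT array was the lowest. The log2 difference was 0.36 (SE 0.09, 95% interval 0.16 to 0.56, limma adjusted p = 0.13). When each array was centred on the olfactory receptor probe sets instead, TUBG1 passed, with a log2 difference of 0.42 and a limma adjusted p of 0.033. In that setting 245 probe sets were higher and 2 lower.

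TUBA1B, a main alpha-tubulin of most cells, had 8.46, 8.73 and 8.67 in CD47- EVs and 8.40, 8.25 and 8.31 in WT EVs. These groups were separate but close, with the first CD47- array just above the first WT array. The log2 difference of TUBA1B was 0.30 (SE 0.09, 95% interval 0.11 to 0.49, limma adjusted p = 0.24). After a further quantile normalization it was 0.17 (limma adjusted p = 0.63), within the range of the tissue-restricted measurements in that setting. TUBA1C, a neighbouring alpha-tubulin gene with a near-identical protein, had 5.12, 5.22 and 5.12 in CD47- EVs and 4.76, 4.99 and 4.71 in WT EVs. Again the groups did not overlap, and the log2 difference was 0.33 (SE 0.09, 95% interval 0.14 to 0.52, limma adjusted p = 0.16). The level of TUBA1C lay below the median of the olfactory receptor probe sets.

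The tissue-restricted genes had smaller differences. TUBA1A, the alpha-tubulin of developing neurons, had 5.59, 5.63 and 5.67 in CD47- EVs and 5.64, 5.60 and 5.61 in WT EVs. The arrays intermingled, and the log2 difference was 0.01, with a 95% interval from -0.14 to 0.17 (limma adjusted p = 0.99). TUBA4A, an alpha-tubulin abundant in platelets, neurons and muscle, had 5.82, 6.0 and 5.95 in CD47- EVs and 5.85, 5.73 and 5.70 in WT EVs. The first arrays of both groups were nearly level, and the log2 difference of 0.16 did not pass (95% interval -0.02 to 0.34, limma adjusted p = 0.68). The levels of TUBA1A and TUBA4A lay above 56.7% and 64.6% of the olfactory receptor probe sets, within the range of those genes. Whether these signals came from the tubulin mRNAs was not tested.

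TUBB6, class V beta-tubulin, had 6.69, 6.53 and 6.65 in CD47- EVs and 6.41, 6.54 and 6.50 in WT EVs. The second CD47- array lay below the second WT array, and the log2 difference was 0.14 (95% interval -0.03 to 0.31, limma adjusted p = 0.74).

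TUBB2A, a class II beta-tubulin prominent in brain, was measured by a single probe set and by a pair with identical values, and their levels lay far apart. The single probe set (8123644), which the annotation ties to the RefSeq mRNA, had 4.70, 4.67 and 4.34 in CD47- EVs and 4.48, 4.36 and 4.36 in WT EVs. One CD47- array was the lowest of the 6, and the log2 difference was 0.17 (95% interval -0.05 to 0.39, limma adjusted p = 0.75). That difference was 0.10 without the first CD47- array and 0.28 without the third. The pair (8116649 and 8116653), tied only to another cDNA, had 8.18, 7.76 and 7.99 in CD47- EVs and 8.13, 7.88 and 7.98 in WT EVs. These arrays overlapped fully, with a log2 difference of -0.02 (95% interval -0.26 to 0.22, limma adjusted p = 0.99). The TUBB2A pair read above 99.2% of the olfactory receptor probe sets and the single probe set above 19.4% of them, so the level of TUBB2A was not settled by these arrays.

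**Figure D2:**
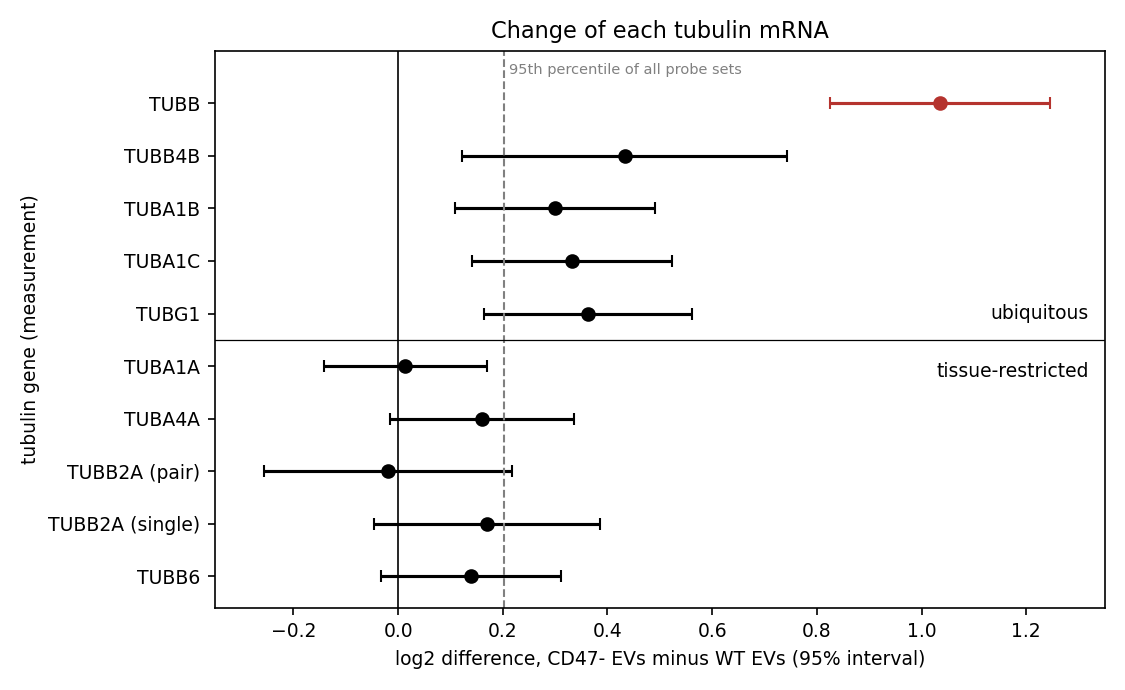
Log2 difference of each tubulin measurement, CD47- minus WT EVs, with the 95% interval from the fit (3 arrays per group). TUBB, in red, passed at 1.04, while the other ubiquitous genes lay between 0.30 and 0.43 and the tissue-restricted measurements between -0.02 and 0.17; the dashed line is the 95th percentile of all probe sets (0.20).

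As a class, the 5 ubiquitous measurements had a median log2 difference of 0.36 and a range from 0.30 to 1.04, and 1 of them passed. The 5 tissue-restricted measurements, from 4 genes, had a median of 0.14 and a range from -0.02 to 0.17, and 0 of them passed. Of these, TUBB6, TUBA4A and the single TUBB2A probe set still had differences above those of 89.85%, 91.81% and 92.78% of all probe sets. The differences of TUBA1A and the TUBB2A pair exceeded those of 54.36% and 40.76%. At an unadjusted limma p under 0.05 lay 5 of the 5 ubiquitous and 0 of the 5 tissue-restricted measurements, against 8.16% of all probe sets in either direction. Over all probe sets with 1 symbol the median was 0.0036. In 4 of the 5 ubiquitous and 0 of the 5 tissue-restricted measurements every CD47- array lay above every WT array, which held for 7.39% of all probe sets and for 18.7% of the 999 whose level exceeded the olfactory receptor 95th percentile. Across the 10 measurements the CD47- mean was the higher in 9. Genes are not replicates, so no test was made between the classes. The tubulin genes and both classes were chosen with earlier results of these data known, so these counts are a description.

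**Figure D3:**
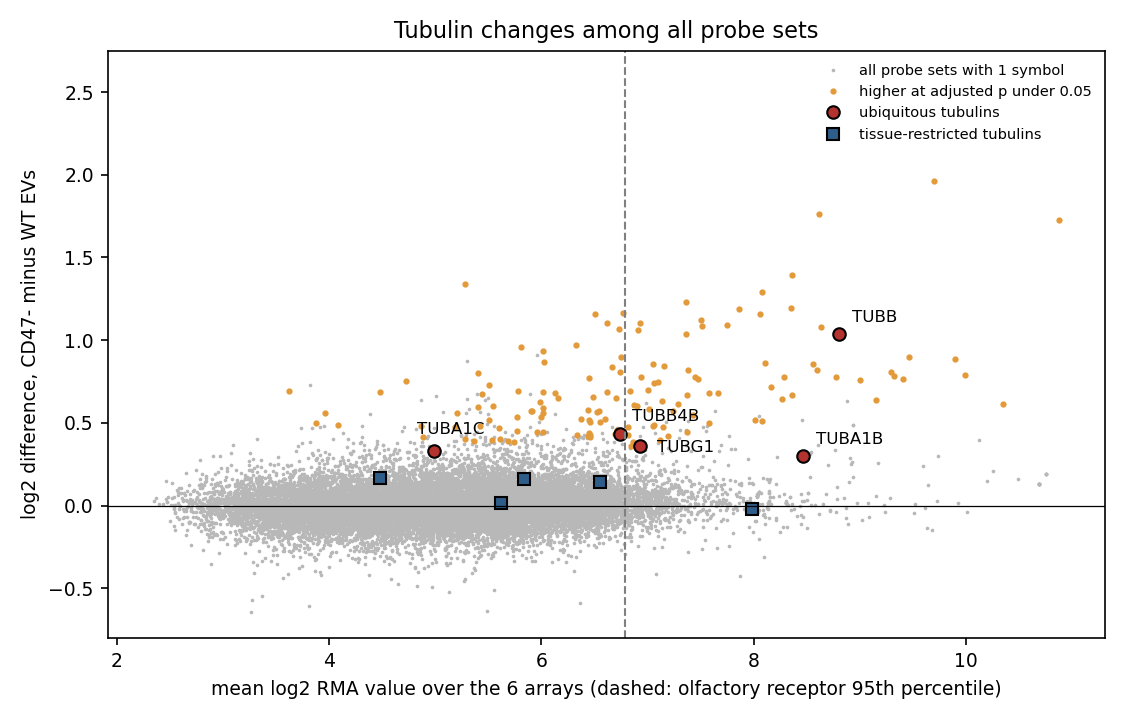
Log2 difference (CD47- minus WT EVs) against mean log2 RMA value for all 19460 probe sets with 1 symbol (grey), those that passed as higher (orange, adjusted p under 0.05), and the ubiquitous (circles) and tissue-restricted (squares) tubulins. TUBB, at 1.04, lay among the bright probe sets that passed, 69 of which had a mean level beyond the dashed line (6.79).

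The brightness of the measurements was also compared. A level beyond the olfactory receptor 95th percentile was seen for 4 of the 10 measurements: TUBB, TUBA1B, TUBG1 and the TUBB2A pair. Over all probe sets with 1 symbol the share was 5.13%. The count was 3 of the 5 ubiquitous and 1 of the 5 tissue-restricted measurements, so the classes also differed in signal level. The part of signal level in the difference between the classes was not tested. Among all probe sets above that line, 6.91% passed as higher, against 0.709% over the whole table, and their median log2 difference was 0.04. Of the 4 tubulin measurements above the line, TUBB passed and the other 3 did not, and the TUBB2A pair had a difference near 0 despite its bright signal.

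TUBB was singled out for its change, so its excess over the other tubulins is given as a description, with no test. The change of TUBB exceeded that of TUBB4B by 0.60, of TUBG1 by 0.67, of TUBA1C by 0.70 and of TUBA1B by 0.74 on the log2 scale. For the other measurements the excess ranged from 0.87 for the single TUBB2A probe set to 1.05 for the TUBB2A pair.

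Other genes of the microtubule system were examined by lists. MAPRE1 encodes EB1, which tracks growing microtubule plus ends, and was the only gene outside the tubulins to pass in these lists. Its values were 6.26, 6.14 and 6.18 in CD47- EVs and 5.70, 5.58 and 5.59 in WT EVs. Every CD47- array lay well above every WT array, and the log2 difference was 0.57 (SE 0.08, 95% interval 0.41 to 0.74, limma adjusted p = 0.0031). The level of MAPRE1 lay above 67.2% of the olfactory receptor probe sets, within the range of those genes. It was 1 of 27 measurements of microtubule-binding and dynamics proteins, whose median log2 difference was 0.03.

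Over all probe sets with 1 symbol 0.709% passed as higher, so a count of 0 in lists of this length says little about their genes. In the 11 other tubulin genes, 0 passed, and the median log2 difference was -0.0028. TUBB8, the oocyte beta-tubulin, had a log2 difference of 0.28 (limma adjusted p = 0.40) and TUBA3C, a testis alpha-tubulin, 0.10 (limma adjusted p = 0.85). Tubulin folding cofactors and prefoldin, which hand new tubulin to the chaperonin and assemble the dimer, had 0 of 16 measurements past the test and a median of 0.05, with 0.29 for URI1 and 0.28 for UXT, both prefoldin-like subunits. For the gamma-tubulin ring complex, the partners of TUBG1, 0 of 12 passed and the median was 0.03, with 0.14 for NEDD1, which anchors the complex, and 0.21 for MZT2A, a small subunit. The enzymes that modify tubulin and the factors of mRNA autoregulation had 0 of 19 past the test and a median of -0.04. ATAT1, the alpha-tubulin acetyltransferase, had differences of -0.19 in each of its 2 probe sets. Microtubule motors had 0 of 26 past the test and a median of 0.03. KIF5C, a kinesin heavy chain prominent in neurons, had -0.42 (limma adjusted p = 0.13), and DYNLL1, a dynein light chain, 0.22. TUBB8, URI1, UXT, NEDD1, both ATAT1 probe sets, KIF5C and DYNLL1 read below the olfactory receptor median. TUBB8 was the lowest, above 9.4% of those probe sets, and DYNLL1 the highest, above 42.8%. TUBA3C and MZT2A were bright, above 98.95% and 98.16%. At an unadjusted limma p under 0.05 there were 1 of the 11 other tubulins, 3 of the 16 folding, 0 of the 12 ring complex, 6 of the 27 microtubule-binding, 1 of the 19 modification and 1 of the 26 motor measurements, against 8.16% of all probe sets. Single arrays moved several of these small differences: without the third WT array DYNLL1 had 0.06 and MZT2A 0.12, without the second WT array TUBB8 had 0.19 and TUBA3C 0.06, and without the first WT array NEDD1 had 0.10, MZT2A 0.34 and TUBA3C 0.15.

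**Figure D4:**
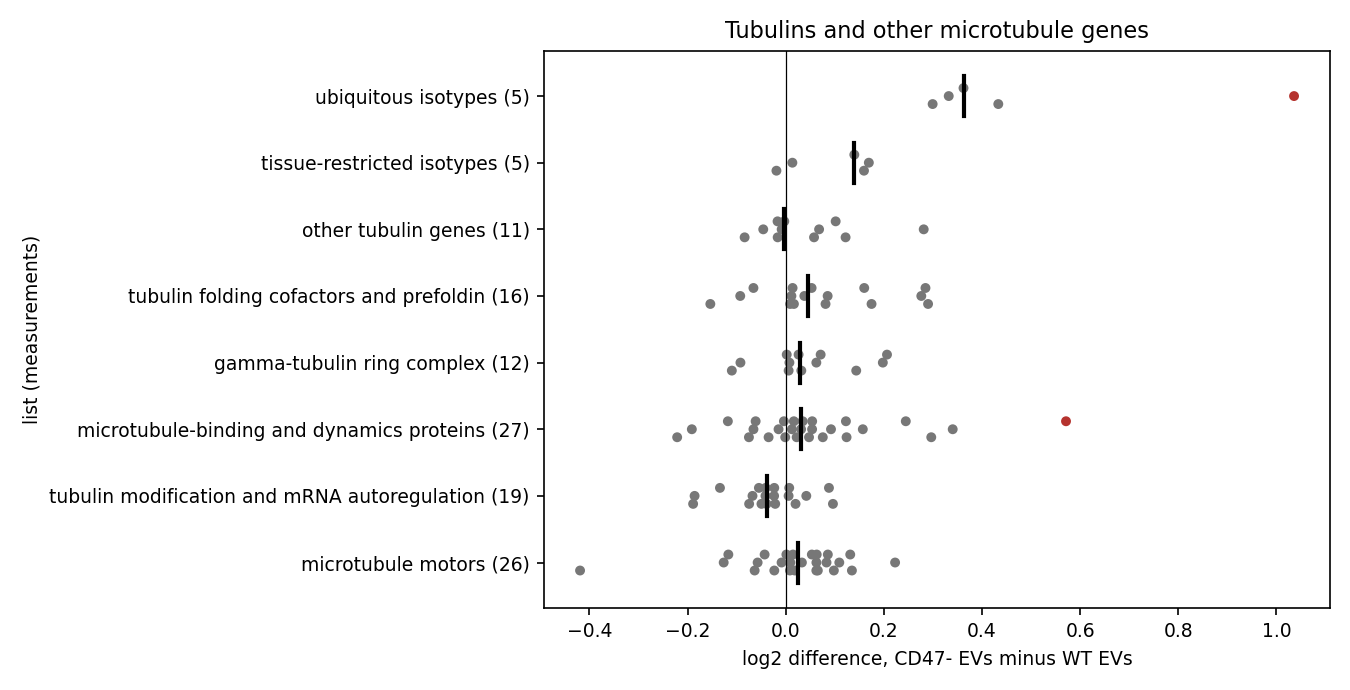
Log2 difference (CD47- minus WT EVs) of every measurement in each list of microtubule genes, with the list's median as a black bar, the number of measurements in brackets and probe sets that passed in red. TUBB (1.04) and MAPRE1 (0.57) were the 2 that passed, and the ubiquitous tubulins had the highest median (0.36).

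The 5 genes outside the tubulin family whose profile over the 6 arrays lay nearest to the mean profile of the ubiquitous tubulins were drawn from 950 distinct probe sets with a mean above the olfactory receptor 95th percentile. The measure was the root-mean-square distance between profiles centred on their own means, in log2 units. The mean profile includes TUBB, whose log2 difference of 1.04 lay far above the 0.30 to 0.43 of the other ubiquitous genes. It therefore need not describe any single gene among them. RPL24, a protein of the large ribosomal subunit, was nearest, at 0.023. TPI1, the glycolytic enzyme triosephosphate isomerase, lay at 0.046. RPL4 and RPL5, also of the large subunit, lay at 0.051 and 0.078, and RPS2, of the small subunit, at 0.082. The log2 differences of these 5 genes ranged from 0.37 for RPS2 to 0.64 for RPL5. Ribosomal protein genes have many pseudogenes, and whether the probes tell them apart was not tested. Since the tubulin profile holds the contrast between the groups, these distances are a description and carry no test.

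Markers of cell types that use the restricted isotypes were checked beside them. Over all probe sets with 1 symbol 0.709% passed as higher and 5.13% lay above the olfactory receptor 95th percentile. Counts of 0 in short lists therefore do not show that markers were absent. None of 14 neuron marker measurements passed, and 0 lay above the olfactory receptor 95th percentile. The mean over the neuron list ranged from 5.28 to 5.36 in CD47- arrays and from 5.21 to 5.31 in WT arrays. Platelet and erythroid markers, which include the platelet beta-tubulin TUBB1, had 0 of 8 past the test, 0 above that percentile, and array means of 5.35 to 5.38 in CD47- EVs and 5.30 to 5.40 in WT EVs. For epithelial and fibroblast markers 0 of 13 passed and 3 lay above that percentile. Their array means were 5.53 to 5.67 in CD47- EVs and 5.63 to 5.64 in WT EVs. T cell identity markers had 0 of 11 past the test and 2 above the percentile, with array means of 6.12 to 6.17 in CD47- EVs and 5.95 to 6.08 in WT EVs. At an unadjusted limma p under 0.05 lay 0 neuron, 0 platelet and erythroid, 1 of 13 epithelial or fibroblast and 3 of 11 T cell measurements, against 8.16% of all probe sets. CD3E, a T cell receptor chain, had a log2 difference of 0.37 (limma adjusted p = 0.11). Every CD47- array mean lay above every WT array mean in 6 of the 12 lists. These were the ubiquitous tubulins (7.31 to 7.54 in CD47- EVs and 6.84 to 7.05 in WT EVs), the tissue-restricted tubulins (6.12 to 6.20 in CD47- EVs and 6.02 to 6.10 in WT EVs), the T cell markers, the folding cofactors, the ring complex and the microtubule-binding proteins. The part of the T cell markers in the tubulin values was not tested. CD47 itself had 4.58, 4.67 and 4.94 in CD47- EVs and 4.72, 4.69 and 4.72 in WT EVs, which overlapped at a level under the olfactory receptor median, so its mRNA did not serve as a check of the labels.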

How the data were processed

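RNA of EVs from CD47- and WT Jurkat cells was measured on 6 one-colour Affymetrix human gene arrays. The authors deposited log2 RMA values from Affymetrix Expression Console. The sources used here give no tool versions. This method corrects background, normalizes by quantiles and summarizes probes. The labelling text calls the human array a mouse array, and the human annotation was used. Array medians lay between 5.08 and 5.14, and pairs of arrays correlated at r = 0.982 to 0.989. The number of arrays limits the precision.

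The deposited values were tested with limma 3.58.1 (lmFit and eBayes, R 4.3.3) on the 19460 probe sets with 1 symbol, with no filter on dim signal, two-sided, with Benjamini-Hochberg adjustment and a threshold of 0.05. Left out were 1754 probe sets that share symbols and 12083 that have none. RefSeq matched 18392 of the 18417 genes. The tubulin genes and all lists were chosen with earlier results of these data known. Named genes were all tubulin genes, up to 4 members that passed per other list or the 2 with the smallest p where none passed, CD47, and the 5 nearest profiles. Tested on simulated data with the spread of these arrays over 19460 probe sets, the fit recovered 94% of changes of 0.5 and 100% of changes of 1 on the log2 scale, and 3.9% of its calls were false. In the measured data a probe set with a wide spread could miss the threshold at 0.91 (SE 0.21, limma adjusted p = 0.093). These rates therefore need not hold for noisy measurements such as TUBB4B.

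Alternatives were the replicate number as a block, leaving out each array, centring on olfactory receptor probe sets, array weights, a variance trend with robust fitting, a second quantile normalization, removal of dim probe sets, 1 probe set per gene, all probe sets, and other class assignments for TUBB6 and TUBG1. Counting identical probe sets once was added after the data were seen. Isotypes have very similar sequences, and whether the probes tell them or their pseudogenes apart was not tested.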

Additional observations from a re-analysis of the deposited data

How the results depend on the processing

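TUBB passed in all 15 alternatives, with log2 differences from 0.90 to 1.09 and limma adjusted p-values from 7.7e-06 to 0.011, and MAPRE1 also passed in all 15. No other tubulin passed, except TUBG1 after centring on olfactory receptor probe sets, which moved the median of all probe sets to 0.06. That centring gave 247 calls over all probe sets against 141; leaving out single arrays gave 65 to 119, with the lowest, 65, without the third WT array, 72 without the third CD47- array and 88 without the second CD47- array. Counting 1 probe set per gene, or identical probe sets once, left 1 tubulin call in place of 3, which follows from counting TUBB once. Direction turned for measurements near 0: the TUBB2A pair had 0.038 after the centring and -0.12 to 0.092 with single arrays left out, TUBA1A -0.0028 after further quantile normalization and -0.0071 to 0.033, CD47 -0.088 to 0.091 and HBB -0.18 to 0.0032. The difference of the class medians, 0.22, was 0.32 without the dim probe sets and 0.17 to 0.30 with single arrays left out. On the gauge, 2 in place of 4 measurements lay above the limit when all probe sets were used. That setting adds probe sets but keeps the deposited tubulin values, so the count depends on which probe sets make the gauge. RPL24, TPI1 and RPL4, named as nearest profiles, lost their calls in 8, 9 and 8 of 15 alternatives. Same-numbered arrays showed no shared deviation (correlations of deviations 0.02, -0.02 and -0.04, with 1 of 3 numbers matching best with itself). Whether same-numbered samples were prepared together cannot be told from these values. With the replicate number as a block 111 calls were made, TUBB among them.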

Other observations

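Tubulin probe sets outside the definition used above gave further values. The probe set shared by TUBB3 and MC1R, the only one that lists TUBB3, had 6.83, 6.76 and 6.75 in CD47- EVs and 6.73, 6.93 and 6.78 in WT EVs, a log2 difference of -0.03 (95% interval -0.22 to 0.15). Since MC1R shares it, the value belongs to neither gene alone. The probe set shared by TUBBP5, TUBB8 and TUBB8P7 had a difference of 0.03, and that shared by TUBA3C, TUBA3D and TUBA3E -0.04. TUBA4B, next in name to TUBA4A, had 6.23, 6.28 and 6.23 in CD47- EVs and 6.16, 6.13 and 6.05 in WT EVs. These groups did not overlap, and the log2 difference was 0.14 (95% interval -0.02 to 0.29, limma adjusted p = 0.71 over all probe sets of the array). The pseudogenes TUBA3FP and TUBBP5 had -0.15 and -0.05.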
